A study of Mus musculus with 12 samples.

Results

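A set of 9 genes of megakaryocytes and platelets was followed across the 12 RNA-seq libraries of the study: Itga2b, Itgb3, Gp1bb, Gp9, Gp5, Vwf, Pf4, Ppbp and Tmem40. They were chosen by symbol, as 9 of the 24421 symbols in the deposited count table, and all 9 passed the low-count filter that left 12744 genes for testing. The cells were GFP-positive bone marrow cells of secondary recipient mice, sorted as LSK cells, which lack lineage markers and carry Kit and Sca-1. Blood stem cells and multipotent progenitors lie in this gate. The engrafted stem and progenitor cells were of 4 genotypes, with 3 libraries each. These were miR146aKO_Runx1mut (no miR-146a and the frameshift mutant Runx1S291fsX300; libraries A001, A031 and A051), Runx1mut (the mutant with miR-146a intact; A021, A042 and A058), miR146aKO (titled Mir-146 KO/Empty; A047, A150 and A151) and wildtype (titled Empty; A015, A040 and A053). The labels do not say what Empty stands for, whether the mutant Runx1 was expressed from a vector or from the gene itself, what GFP marks beyond the sort, or how old the mice were. They also do not say whether cells of the host could pass the GFP gate.

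Megakaryocytes are the bone marrow cells that shed platelets, and they branch off early from the blood stem cell, so that some mouse stem cells already carry megakaryocyte transcripts. Platelets stick to damaged vessel walls through the glycoprotein Ib-IX-V complex, which binds von Willebrand factor, and to each other through the integrin of Itga2b and Itgb3, which binds fibrinogen. Their alpha granules hold von Willebrand factor and chemokines of the CXC family such as those of Pf4 and Ppbp. RUNX1 works with GATA1 and ETS-family factors in megakaryocyte genes, and inherited RUNX1 mutations in humans cause low platelet numbers.

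Total counts were 3540043 to 7026393 per library. One count was worth 0.137 to 0.316 CPM, which are counts scaled by library size and TMM factors and are the unit of all levels below. Where a library had 0 counts, a limit of 3 counts allows up to 0.410 to 0.948 CPM, for counting error only. In these bulk samples fewer cells of a type and less RNA per cell cannot be told apart. The sort markers were present in all 12 libraries. Kit averaged 187 ± 28.6 CPM in miR146aKO_Runx1mut, 308 ± 349 in Runx1mut, 44.0 ± 17.9 in miR146aKO and 339 ± 111 in wildtype (SD, n = 3 each), and Ly6a, which encodes Sca-1, averaged 50.6 ± 61.1, 138 ± 105, 755 ± 258 and 142 ± 87.0 CPM in the same order. Of 18 megakaryocyte markers, 11 to 17 had counts in a library, but Tubb1, the tubulin of platelets, was at 0 except for 0.242 CPM in A150 and 0.547 CPM in A015, and Gp6, the platelet collagen receptor, did not exceed 3.38 CPM. Others of these markers reached higher levels, such as Treml1 at 73.4 CPM in A042 and Clec1b at 54.1 CPM in A058. Mir146 had 14 counts in A031, a library labelled as lacking miR-146a, and 0 in the other 11 libraries. For the comparisons of miR146aKO_Runx1mut, the estimates named are also given without A031.

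The sequences around the start sites are shown for 4 of the genes, since RUNX1 and its partners act on megakaryocyte promoters: Itga2b and Pf4, which were among the most abundant per gene length, Gp9, and Tmem40, the 1 gene that passed the edgeR test in a comparison of 2 genotypes. The windows are those of RefSeq (GRCm38.p6), from 250 bases before to 50 bases after the start, read 5′ to 3′ on the gene's strand, and 7 of the 9 genes had at least 1. They lie at chr11:102469834-102470133 (minus strand) for Itga2b, chr5:90772185-90772484 (plus) for Pf4, chr6:87777820-87778119 (plus) for Gp9, and chr6:115762417-115762716 and chr6:115758950-115759249 (both minus) for 2 start sites of Tmem40. Capitals mark 6-base motif matches on either strand, and no match of one motif overlapped another. The RUNX motif was searched as TGTGGT and in its second form as TGCGGT. For GATA the letters were AGATAA, with TGATAA as the second form. For ETS they were GGAAGT, with GGAAGC as the second form. A match on the other strand reads as its reverse complement, for example ACTTCC.
Itga2b: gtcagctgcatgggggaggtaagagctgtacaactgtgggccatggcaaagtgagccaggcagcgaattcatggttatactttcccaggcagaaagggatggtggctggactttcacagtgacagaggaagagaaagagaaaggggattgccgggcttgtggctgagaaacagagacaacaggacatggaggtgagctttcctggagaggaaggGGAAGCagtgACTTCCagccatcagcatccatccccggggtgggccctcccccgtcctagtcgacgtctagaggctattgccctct
Pf4: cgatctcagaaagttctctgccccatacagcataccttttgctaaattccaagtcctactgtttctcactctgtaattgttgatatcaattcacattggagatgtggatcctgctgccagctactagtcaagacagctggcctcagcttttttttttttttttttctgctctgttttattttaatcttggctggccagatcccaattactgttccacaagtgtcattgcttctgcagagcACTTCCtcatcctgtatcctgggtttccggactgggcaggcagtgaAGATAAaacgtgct
Gp9: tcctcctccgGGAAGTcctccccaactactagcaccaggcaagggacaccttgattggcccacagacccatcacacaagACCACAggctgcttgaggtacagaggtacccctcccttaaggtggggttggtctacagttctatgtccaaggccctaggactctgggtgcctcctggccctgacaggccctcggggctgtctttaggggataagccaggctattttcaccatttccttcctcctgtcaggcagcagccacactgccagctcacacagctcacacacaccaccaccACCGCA
Tmem40, outer start: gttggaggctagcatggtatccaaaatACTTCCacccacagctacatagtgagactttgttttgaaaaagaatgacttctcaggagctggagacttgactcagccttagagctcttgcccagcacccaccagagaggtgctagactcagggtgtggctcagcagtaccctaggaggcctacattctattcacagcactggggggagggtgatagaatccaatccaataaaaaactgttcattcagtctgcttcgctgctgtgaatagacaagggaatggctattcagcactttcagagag
Tmem40, inner start: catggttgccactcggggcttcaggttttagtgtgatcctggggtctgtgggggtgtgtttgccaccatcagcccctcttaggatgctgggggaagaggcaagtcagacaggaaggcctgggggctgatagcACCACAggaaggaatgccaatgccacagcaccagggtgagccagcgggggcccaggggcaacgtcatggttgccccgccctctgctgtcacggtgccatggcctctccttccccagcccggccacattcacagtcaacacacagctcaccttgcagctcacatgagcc

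An ETS match was found in 7 of the 8 windows of these genes, against 43.6% of all 32851 windows of the same length. In Itga2b a pair of ETS matches began 36 and 26 bases before the start, and in Pf4 there was 1 ETS match 10 bases before and 1 GATA match 37 bases after it. RUNX matches were in 2 of the 8 windows, 1 of Gp9 and the inner one of Tmem40, against 22.4% of all windows. GATA matches were in 2 of the 8, those of Pf4 and Gp5, against 18.6%. A match is a run of letters, not a shown binding site, and no match says nothing about a factor.

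Itga2b and Itgb3, the integrin genes, had the highest mean levels of the 9 in miR146aKO_Runx1mut and Runx1mut, and Itgb3 also in miR146aKO and wildtype, where Itga2b ranked 3 and 4. Itga2b (chr11:102453297-102470122, minus strand, GRCm38) encodes the alpha chain, known as CD41, which marks megakaryocytes and some early blood progenitors. It stood at 4.48, 894 and 309 CPM in A001, A031 and A051 of miR146aKO_Runx1mut, 89.4, 1112 and 349 CPM in A021, A042 and A058 of Runx1mut, 13.3, 2.18 and 11.9 CPM in A047, A150 and A151 of miR146aKO, and 94.95, 71.5 and 49.98 CPM in A015, A040 and A053 of wildtype. All 3 miR146aKO libraries lay below all 3 wildtype ones. Of the Runx1mut libraries, A042 and A058 lay above the narrow wildtype range and A021 inside it, while miR146aKO_Runx1mut had A031 and A051 above it and A001 below it. Itgb3 (chr11:104608000-104670476, plus strand), the beta chain, had 8.44, 654 and 785 CPM in miR146aKO_Runx1mut, 61.0, 433 and 398 CPM in Runx1mut, 64.2, 36.8 and 42.4 CPM in miR146aKO and 640.2, 287 and 88.7 CPM in wildtype, with the libraries of each genotype in the same sequence as before. Here too the miR146aKO libraries lay below wildtype without overlap, while the other genotypes overlapped it.

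The glycoprotein genes of the von Willebrand factor receptor were lower in count. Gp9 (chr6:87778072-87779768, plus strand) had 0.172, 30.03 and 16.7 CPM in miR146aKO_Runx1mut, 1.42, 35.7 and 35.1 CPM in Runx1mut, 0, 1.94 and 2.92 CPM in miR146aKO and 27.8, 5.77 and 0.854 CPM in wildtype. Gp5 (chr16:30307685-30310779, minus strand) had 0, 52.6 and 47.04 CPM in miR146aKO_Runx1mut, 0.284, 56.1 and 74.3 CPM in Runx1mut, 0, 1.21 and 2.43 CPM in miR146aKO and 13.5, 1.55 and 9.97 CPM in wildtype. For both genes 2 libraries each of miR146aKO_Runx1mut and Runx1mut were high and 1 was low, A001 and A021, and all genotypes overlapped wildtype. Gp1bb (chr16:18620317-18622403, minus strand), the beta chain of glycoprotein Ib, had 0, 44.4 and 28.4 CPM in miR146aKO_Runx1mut, 0.142, 0.569 and 0.855 CPM in Runx1mut, 0, 0.726 and 0 CPM in miR146aKO and 4.10, 1.78 and 0 CPM in wildtype. These are 367, 10, 3 and 38 counts over the libraries of each genotype in that order, so A031 (250 counts) and A051 (117 counts) held most of the reads of this gene. In GRCm38 Gp1bb shares 1902 bases with Sept5 and 1938 bases with Gm49601, both on the same strand. How reads in these bases were assigned is not given, so reads of Gp1bb could be missing from its counts. Sept5 had 15.3 CPM in A001, where Gp1bb had 0 counts, 0 CPM in A031, 11.9 CPM in A051 and at most 1.09 CPM in the other 9 libraries.

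Among the granule genes, Vwf (chr6:125546774-125686679, plus strand) encodes von Willebrand factor, which endothelial cells also make and which marks platelet-biased stem cells in mice. It had 1.03, 66.6 and 93.1 CPM in miR146aKO_Runx1mut, 0.568, 8.68 and 2.40 CPM in Runx1mut, 7.59, 1.45 and 1.95 CPM in miR146aKO and 410.2, 188 and 18.9 CPM in wildtype. Both single genotypes lay below wildtype without overlap, while A031 and A051 lay inside the wildtype range. Pf4 (chr5:90772435-90773383, plus strand), platelet factor 4, had 0.689, 334 and 374 CPM in miR146aKO_Runx1mut, 4.11, 59.0 and 211 CPM in Runx1mut, 0.632, 56.9 and 31.4 CPM in miR146aKO and 176, 126 and 20.4 CPM in wildtype, with overlap throughout. Ppbp (chr5:90768518-90770063, plus strand), the precursor of another platelet chemokine, lies 2371 bases from Pf4 and had 0.172, 15.6 and 77.8 CPM in miR146aKO_Runx1mut, 0, 0.285 and 56.1 CPM in Runx1mut, 0, 0 and 0.730 CPM in miR146aKO and 5.47, 0 and 0 CPM in wildtype. Nearly all Ppbp reads thus came from A031, A051, A058 and A015.

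Tmem40 (chr6:115729131-115762410, minus strand) encodes a membrane protein found in platelets. Its levels were 8.96, 14.6 and 7.27 CPM in miR146aKO_Runx1mut, 43.3, 58.5 and 16.1 CPM in Runx1mut, 0, 0 and 0.243 CPM in miR146aKO and 51.3, 9.77 and 19.5 CPM in wildtype. The miR146aKO libraries held 1 count in all, against 164 in miR146aKO_Runx1mut, 810 in Runx1mut and 556 in wildtype. They overlapped none of the other genotypes, and the miR146aKO_Runx1mut libraries lay below all Runx1mut ones.

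**Figure D1:**
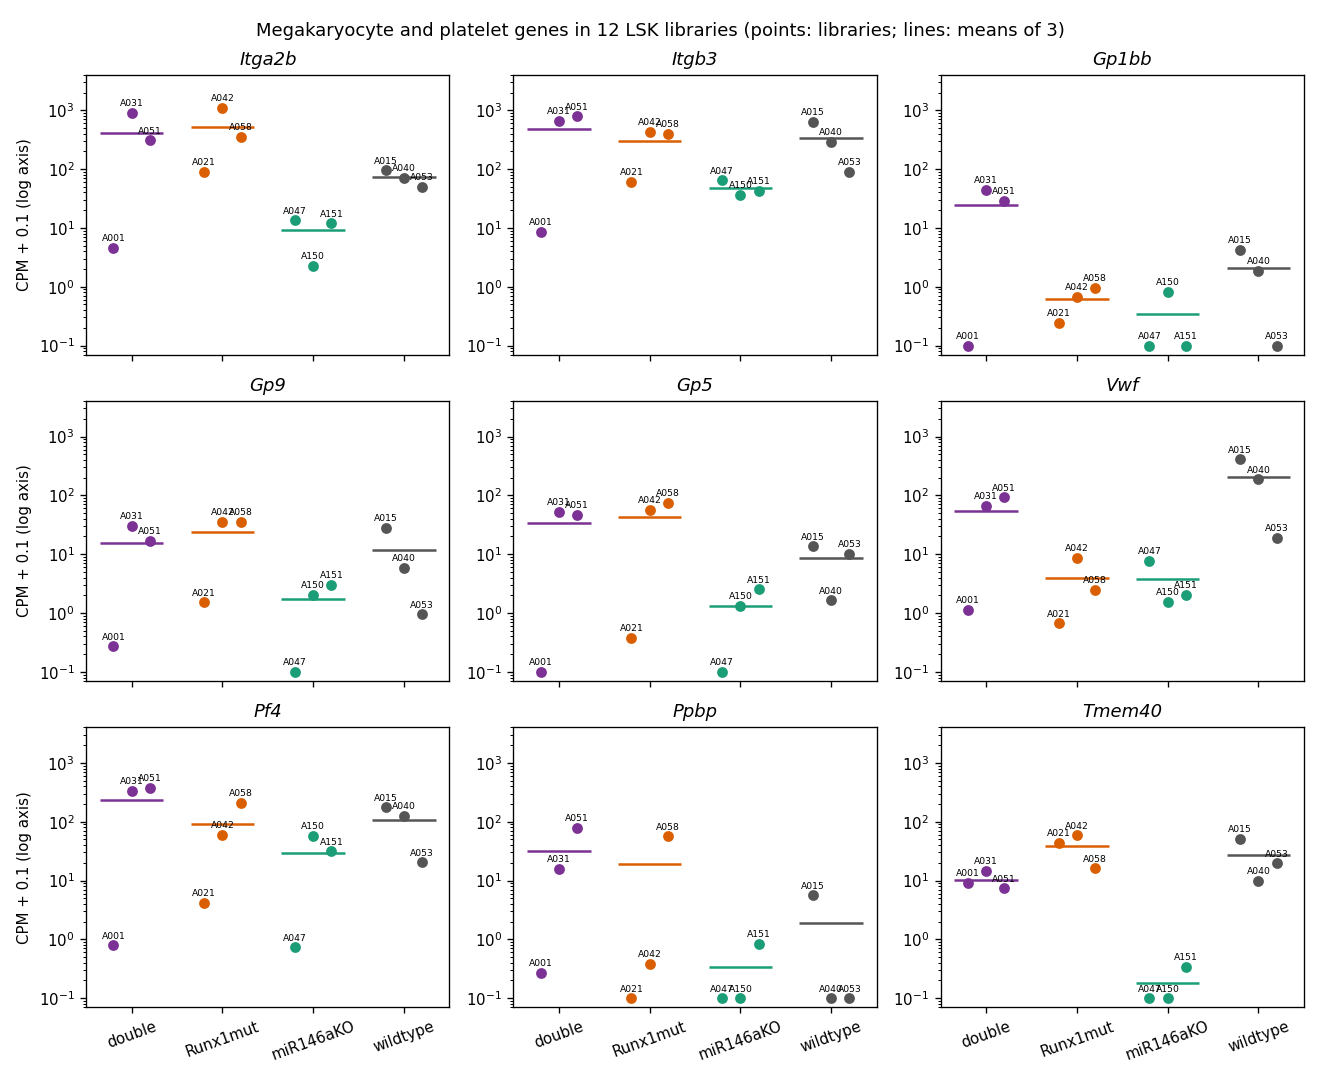
CPM of each of the 9 genes in the 12 libraries, with 0.1 added, by genotype on a log axis, where points are libraries, lines are means of 3 and "double" stands for miR146aKO_Runx1mut. A001 and A021 lie far below the other libraries of their genotype for most genes, while Tmem40 differs less within those genotypes and is near 0 in miR146aKO.

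The same libraries were low for most of the genes. Summed over the 9 genes, the level was 23.9, 2106 and 1738 CPM in A001, A031 and A051, 200.2, 1764 and 1143 CPM in A021, A042 and A058, 85.7, 101 and 94.0 CPM in A047, A150 and A151, and 1423, 691 and 208 CPM in A015, A040 and A053. The 3 miR146aKO libraries were close to each other and below each wildtype library, whereas the miR146aKO_Runx1mut libraries held both the lowest and the highest sum of all. Within miR146aKO_Runx1mut the highest library exceeded the lowest 542-fold for Pf4, 199.6-fold for Itga2b and 174-fold for Gp9, but 2.00-fold for Tmem40. In wildtype this ratio was 1.90 for Itga2b and 21.7 for Vwf, and in Runx1mut it reached 262 for Gp5. No ratio was taken for a gene with 0 counts in a library of the genotype, such as Gp1bb and Gp5 in miR146aKO_Runx1mut and Ppbp in Runx1mut. Spread of this size within a genotype sets what the tests below can show.

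The makeup of the sum also differed. Vwf took 4.32%, 3.16% and 5.36% of the counts of the 9 genes in A001, A031 and A051, 0.283%, 0.492% and 0.210% in A021, A042 and A058, 8.86%, 1.44% and 2.07% in A047, A150 and A151, and 28.8%, 27.2% and 9.09% in A015, A040 and A053. Its share was thus lowest in Runx1mut and highest in wildtype, with no overlap between wildtype and any other genotype. Tmem40 took 37.4% in A001 and 21.6% in A021, the libraries where the other genes were low, and at most 9.36% elsewhere.

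**Figure D2:**
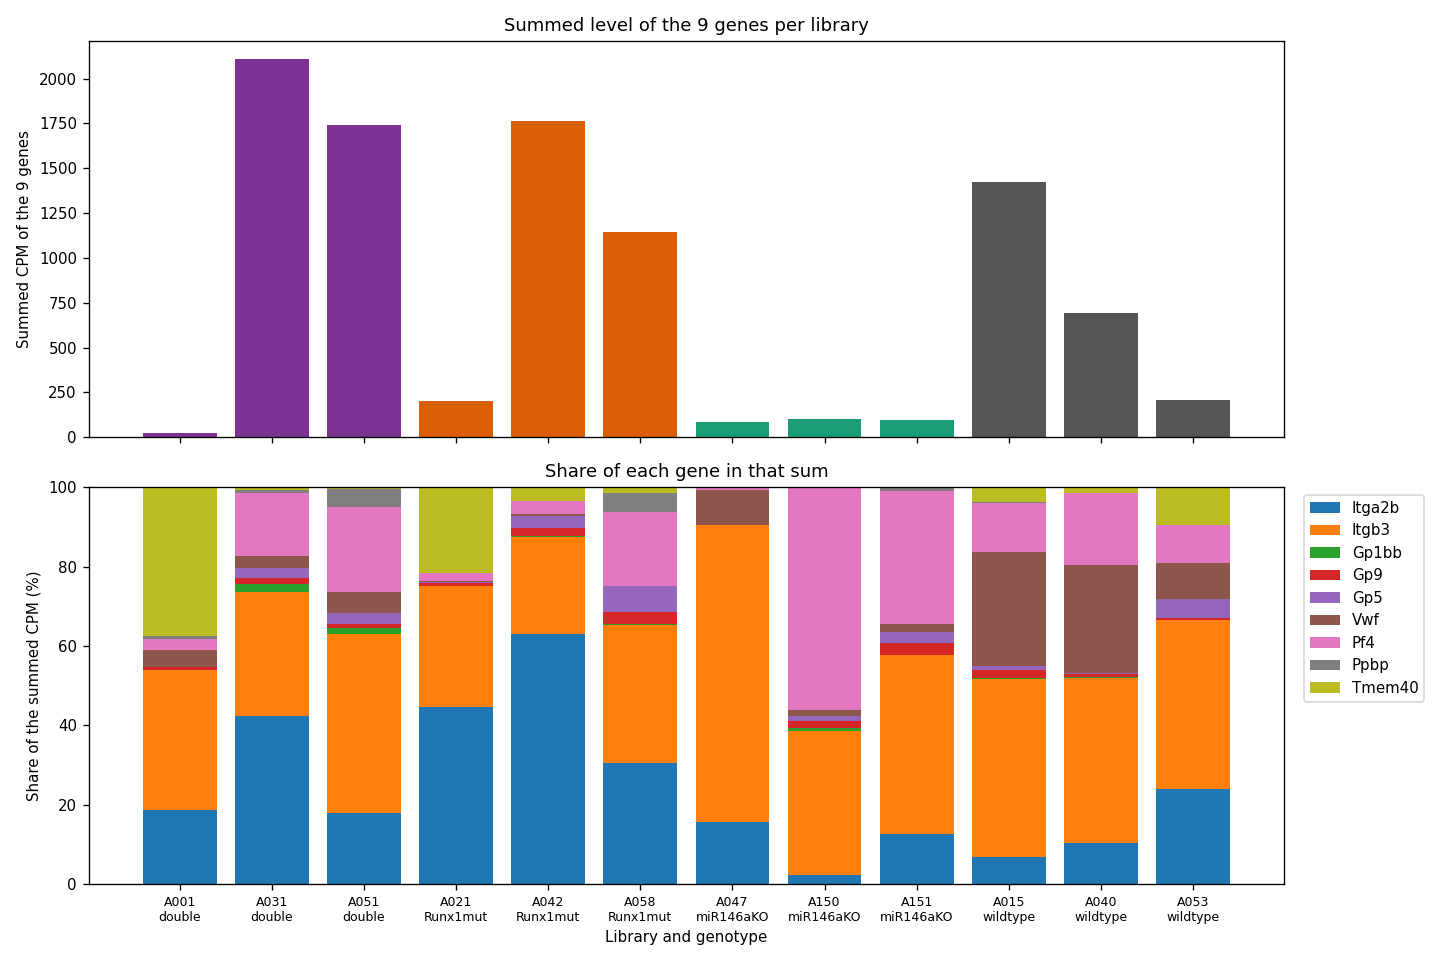
Summed CPM of the 9 genes per library (top, linear axis from 0) and the percentage of that sum from each gene (bottom), by genotype, with "double" for miR146aKO_Runx1mut. Itga2b and Itgb3 make up most of the counts in most libraries, and Vwf takes its largest shares in A015 and A040 of wildtype.

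Levels between genes were compared per kilobase of merged exons. Pf4 ranked first in each genotype, at 327 ± 284 CPM per kb in miR146aKO_Runx1mut, 127 ± 149 in Runx1mut, 41.1 ± 39.1 in miR146aKO and 149 ± 110 in wildtype (SD, n = 3). In wildtype it was followed by Itgb3 at 57.4 ± 47.3, Itga2b at 13.2 ± 4.12, Gp9 at 13.02 ± 16.3, Vwf at 12.8 ± 12.2 and Tmem40 at 12.6 ± 10.2 CPM per kb. Gp5 at 3.80 ± 2.80, Ppbp at 1.68 ± 2.92 and Gp1bb at 0.939 ± 0.986 CPM per kb came last. From Itga2b to Tmem40 the neighbours in this order differed by less than their spread. The order changed between genotypes: Vwf ranked 9 of 9 in both miR146aKO_Runx1mut and Runx1mut, and 5 in wildtype.

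The first comparison asks what loss of miR-146a alone did. Tmem40 fell in miR146aKO against wildtype, at 0.0811 ± 0.141 CPM against 26.9 ± 21.7 CPM (SD, n = 3 each). The fitted log2 fold change was -7.94 ± 1.24 (SE, edgeR adjusted p = 0.0322), and since 1 count stands against 556, the ratio of counts is 0.00297 with a 95% counting interval of 7.51e-05 to 0.0166. This was 1 of 9 genes called, at an adjusted p under 0.05, against 0.18% of all 12744 genes, or 0.0314% on the lower side. In all 4 of the 9 had an unadjusted p under 0.05, against 15.9% of all genes. The estimates of all 9 genes lay on the lower side, as did 50.1% of all genes. Libraries did not overlap for 4 of the 9, Itga2b, Itgb3, Vwf and Tmem40, against 10.3% of all genes lying wholly lower.

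By edgeR the other 8 genes did not pass the test in miR146aKO against wildtype. DESeq2 called 2 of the 9, Tmem40 and Vwf, against 7.63% of all genes. By edgeR Vwf had the next lowest p, with 3.66 ± 3.41 CPM in miR146aKO and 206 ± 196 CPM in wildtype, a log2 fold change of -5.83 ± 1.51 and an edgeR adjusted p of 0.103. Itgb3 followed with 47.8 ± 14.5 CPM in miR146aKO and 339 ± 279 CPM in wildtype (log2 fold change -2.83 ± 1.11, edgeR adjusted p = 0.239), and then Itga2b with 9.13 ± 6.06 CPM in miR146aKO and 72.1 ± 22.5 CPM in wildtype (-2.99 ± 1.24, adjusted p = 0.262). For Gp9, Gp5, Gp1bb, Pf4 and Ppbp the log2 fold changes ran from -2.86 to -1.85 with SE from 1.55 to 2.57 and adjusted p from 0.449 to 0.655. At the depth of Gp1bb and Ppbp, 3 counts in miR146aKO against 38 and 40 in wildtype gave ratios of 0.130 (95% counting interval 0.0257 to 0.411) and 0.124 (0.0245 to 0.389). Counting intervals, here and for Tmem40, leave out the spread between libraries. All 40 wildtype counts of Ppbp came from A015, and without A015 the log2 fold change of Ppbp turned to 3.56.

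The call of Tmem40 depended on single libraries, on 1 covariate and on the tool. Its edgeR adjusted p was 0.112 without A150, 0.0895 without A151, 0.0564 without A015 and 0.0596 without A053, and it ranged from 2.72e-06 to 0.277 over 21 settings, with the estimate on the lower side in each. The highest, 0.277, came with the mean log2 level of 4 Y-linked genes as a covariate, and limma-voom gave 0.0617. Their mean level was 60.4, 39.5 and 24.8 CPM in A047, A150 and A151 of miR146aKO and 0.137, 7.99 and 1.89 CPM in A015, A040 and A053 of wildtype. Other cell markers moved as well. The summed level of 14 monocyte and macrophage markers was 1139 to 10187 CPM in miR146aKO and 112 to 1386 CPM in wildtype. A047, at 1139 CPM, lay within the wildtype range. Of these markers 12 had higher and 2 lower estimates in miR146aKO (median log2 fold change 4.06). The summed level of 12 B lineage markers was 5492 to 11161 CPM in miR146aKO and 28.2 to 510 CPM in wildtype. Jchain alone held 10503, 2924 and 7649 CPM of these sums in A047, A150 and A151, and 445 CPM in A040. All 12 markers had higher estimates in miR146aKO (median log2 fold change 5.46). The sum of 14 LSK and stem cell markers was 736 to 1634 CPM in miR146aKO and 1803 to 3733 CPM in wildtype. Ly6a alone held 1019, 505 and 742 CPM of it in A047, A150 and A151, and 46.0 to 216 CPM in wildtype. Of these 14 markers, 13 had lower estimates in miR146aKO. The part of the sex-linked genes and of these markers in the result was not tested.

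The second comparison asks what the Runx1 mutation alone did. By edgeR none of the 9 genes was called, with 0% of all genes called, and 2 of 9 had an unadjusted p under 0.05, against 5.52% of all genes. By DESeq2 1 of them, Vwf, was called, against 0.901% of all genes. Vwf averaged 3.88 ± 4.25 CPM in Runx1mut and 206 ± 196 CPM in wildtype, a log2 fold change of -5.72 ± 1.49 (SE, edgeR unadjusted p = 0.00177, adjusted p = 0.608). It was the 1 gene of 9 whose Runx1mut libraries all lay below wildtype, against 6.41% of all genes. Itga2b went the other way in its estimate, with 517 ± 531 CPM in Runx1mut and 72.1 ± 22.5 CPM in wildtype (2.84 ± 1.21, unadjusted p = 0.0336, edgeR adjusted p = 0.865). The remaining 7 genes had log2 fold changes from -1.88 for Gp1bb to 3.32 for Ppbp, with unadjusted p of 0.174 or above.

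Endothelial cells are a known source of Vwf, and their markers were read beside it. The summed level of 15 stromal and endothelial markers was 123 to 931 CPM in miR146aKO_Runx1mut, 69.0 to 226 CPM in Runx1mut, 81.9 to 778 CPM in miR146aKO and 138 to 220 CPM in wildtype, with 8 to 15 of the 15 detected in a library and none at 0 throughout. The genotype ranges overlapped, but the sums join stromal and endothelial genes. The stromal gene Cxcl12 alone had 468 CPM in A031 and 346 CPM in A151, the libraries with the highest sums of their genotypes. Of the endothelial genes, Cdh5 was at 0 in wildtype, while Tek had 48.2, 53.3 and 4.27 CPM in A015, A040 and A053. The overlap of the sums thus does not show how endothelial cells alone compared. The summed level of 14 LSK and stem cell markers was 295 to 1659 CPM in miR146aKO_Runx1mut, 343 to 2995 CPM in Runx1mut, 736 to 1634 CPM in miR146aKO and 1803 to 3733 CPM in wildtype. The miR146aKO_Runx1mut and miR146aKO ranges lay wholly below wildtype, and so did 2 Runx1mut libraries, A021 and A058 (569 CPM). Of these sums Ly6a alone held 1019, 505 and 742 CPM in A047, A150 and A151 of miR146aKO, and 46.0 to 216 CPM in wildtype. Against wildtype 13 of the 14 markers had lower estimates in each of the 3 genotypes, with median log2 fold changes of -2.38 in miR146aKO_Runx1mut, -1.81 in Runx1mut and -2.47 in miR146aKO, and none was called by edgeR. The part of either kind of cell in the Vwf levels was not tested.

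The third set of comparisons concerns the double genotype. Against wildtype, none of the 9 genes was called in miR146aKO_Runx1mut by edgeR or DESeq2, none had an unadjusted edgeR p under 0.05 (background 0% called by edgeR, 1.88% by DESeq2, and 9.42% under 0.05 by edgeR), and the libraries of all 9 overlapped, while 6.32% of all genes lay wholly higher and 7.17% wholly lower. Estimates were higher for 7 genes, against 51.3% of all genes, and lower for Vwf and Tmem40. Gp1bb averaged 24.3 ± 22.5 CPM in miR146aKO_Runx1mut and 1.96 ± 2.06 CPM in wildtype (log2 fold change 3.61 ± 1.94, edgeR adjusted p = 0.590), and Itga2b 403 ± 452 and 72.1 ± 22.5 CPM (2.48 ± 1.19, adjusted p = 0.540). Vwf averaged 53.6 ± 47.4 CPM in miR146aKO_Runx1mut and 206 ± 196 CPM in wildtype (-1.94 ± 1.25, adjusted p = 0.644). Without A031 the estimates were 2.84 ± 2.25 for Gp1bb (adjusted p = 0.593), 1.12 ± 1.16 for Itga2b (adjusted p = 0.700) and -2.13 ± 1.49 for Vwf (adjusted p = 0.543), and 6 genes were on the higher side.

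Set against miR146aKO, where the 2 genotypes differ in the Runx1 mutation, miR146aKO_Runx1mut had higher estimates for all 9 genes, as had 49.6% of all genes. None was called by edgeR, where 0.0157% of all genes were, while 7 of 9 had an unadjusted p under 0.05 against 14.8% of all genes, and DESeq2 called 5 (Itga2b, Itgb3, Gp1bb, Vwf and Tmem40) against 5.96% of all genes. Without A031, 6 of 9 had an unadjusted edgeR p under 0.05. Tmem40 averaged 10.3 ± 3.82 CPM in miR146aKO_Runx1mut and 0.0811 ± 0.141 CPM in miR146aKO, with no overlap of libraries, as for 9.45% of all genes in this direction. Its log2 fold change was 6.56 ± 1.20 (SE, edgeR adjusted p = 0.0670), and the 164 counts against 1 gave a ratio of 120.2 with a 95% counting interval of 21.3 to 4777. Itga2b averaged 403 ± 452 CPM in miR146aKO_Runx1mut and 9.13 ± 6.06 CPM in miR146aKO (5.47 ± 1.38, adjusted p = 0.120), but A001 at 4.48 CPM lay within the miR146aKO range. In the other 7 genes A001 likewise lay within or below the miR146aKO range. Without A031 the edgeR estimates were 6.22 ± 1.26 for Tmem40 (adjusted p = 0.0663) and 4.11 ± 1.26 for Itga2b (adjusted p = 0.138).

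Markers of other cells moved in this comparison too. The summed level of 12 B lineage markers was 61.5 to 416 CPM in miR146aKO_Runx1mut and 5492 to 11161 CPM in miR146aKO, and all 12 had lower estimates (median log2 fold change -5.13). Of these sums Jchain alone held 10503, 2924 and 7649 CPM in A047, A150 and A151, and 6.03, 208 and 300 CPM in A001, A031 and A051. Of 11 T and NK markers 10 had lower estimates (median -7.05), with summed levels of 219.6 to 739 CPM in miR146aKO_Runx1mut and 246 to 2178 CPM in miR146aKO. The 2178 CPM was that of A047, while A150 and A151, at 246 and 312 CPM, lay within the miR146aKO_Runx1mut range. Cd3e, for example, had 644, 8.71 and 2.68 CPM in A047, A150 and A151. The 14 neutrophil markers summed to 13676 to 60363 CPM in miR146aKO_Runx1mut and 4061 to 12320 CPM in miR146aKO. Of these markers 9 had higher and 5 lower estimates (median 0.62). Mpo alone held 48564 CPM of the highest sum, that of A001, which had the lowest sum of the 9 genes (23.9 CPM). The 9 mast cell and basophil markers summed to 100.1 to 434 CPM in miR146aKO_Runx1mut and 7.02 to 51.8 CPM in miR146aKO. The part of such cells in the levels of the 9 genes was not tested.

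Against Runx1mut, where the genotypes differ in miR-146a, none of the 9 genes was called in miR146aKO_Runx1mut by edgeR or DESeq2, with 0% of all genes called by edgeR and 0.566% by DESeq2, and 3 of 9 (2 without A031) had an unadjusted edgeR p under 0.05 against 4.63% of all genes. Gp1bb averaged 24.3 ± 22.5 CPM in miR146aKO_Runx1mut and 0.522 ± 0.359 CPM in Runx1mut (log2 fold change 5.49 ± 2.13, edgeR adjusted p = 0.979), and without A031 the fold change of Gp1bb was 4.71 ± 2.41 (adjusted p = 0.626). Vwf averaged 53.6 ± 47.4 CPM in miR146aKO_Runx1mut and 3.88 ± 4.25 CPM in Runx1mut (3.77 ± 1.36, adjusted p = 0.979). Tmem40 averaged 10.3 ± 3.82 CPM in miR146aKO_Runx1mut and 39.3 ± 21.5 CPM in Runx1mut (-1.93 ± 0.85, adjusted p = 0.999), with no overlap, as for 5.42% of all genes in this direction. For the other 6 genes the estimate was within 1 SE of 0. Without A031 the estimates were 3.58 ± 1.44 for Vwf (adjusted p = 0.542), -2.27 ± 1.02 for Tmem40 (adjusted p = 0.586) and -1.72 ± 1.25 for Itga2b (adjusted p = 0.717).

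The interaction asks whether the Runx1 mutation acted differently without and with miR-146a, as the difference of miR146aKO_Runx1mut from miR146aKO minus that of Runx1mut from wildtype. Its estimates were positive for all 9 genes, as for 50.9% of all genes, and 4 of 9 (3 without A031) had an unadjusted edgeR p under 0.05 against 9.46%. None was called by edgeR (0.0235% of all genes were), and DESeq2 called 2, Vwf and Tmem40, against 1.77% of all genes. Vwf had the lowest p, with an interaction of 9.60 ± 2.03 on the log2 scale (SE, edgeR unadjusted p = 0.00032, adjusted p = 0.255). It was followed by Tmem40 at 6.01 ± 1.44 (adjusted p = 0.312), Gp1bb at 8.34 ± 2.92 (adjusted p = 0.407) and Itgb3 at 3.52 ± 1.51 (adjusted p = 0.486). Without A031 the interaction was 9.42 ± 2.10 for Vwf (adjusted p = 0.197), 5.67 ± 1.51 for Tmem40 (adjusted p = 0.220), 7.57 ± 3.29 for Gp1bb (adjusted p = 0.380) and 3.24 ± 1.59 for Itgb3 (adjusted p = 0.431). For Vwf the Runx1 mutation thus came with a higher estimate without miR-146a (3.89 ± 1.39) and a lower one with it (-5.72 ± 1.49), neither of which passed the edgeR test, while DESeq2 called both (adjusted p = 0.0422 and 0.00151).

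**Figure D3:**
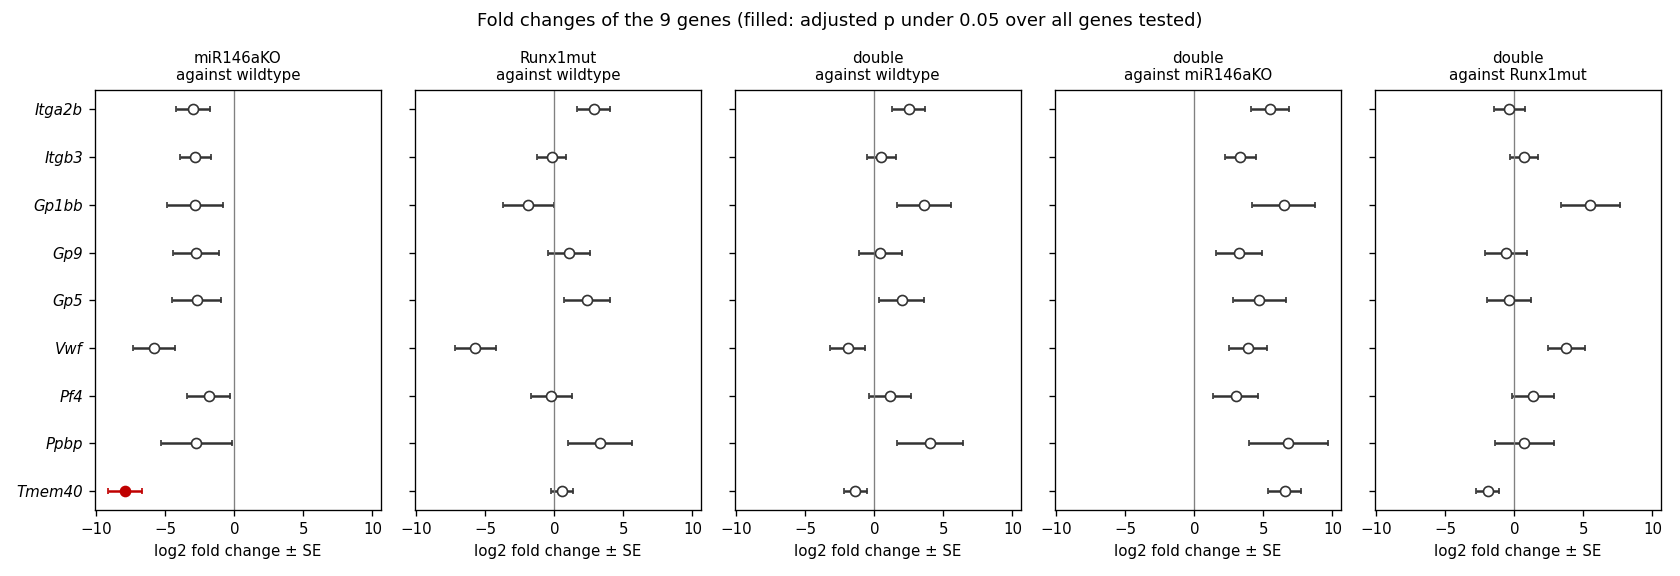
Log2 fold changes of the 9 genes with bars of 1 SE (edgeR, 3 libraries per genotype), by comparison. Tmem40 in miR146aKO against wildtype is the 1 value past the adjusted threshold, and Vwf is low in both single genotypes against wildtype.

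Over the 4 genotypes at once, 1 of the 9 genes was called by edgeR, Tmem40 (adjusted p = 0.0287), against 0.408% of all genes, and 4 of 9 had an unadjusted p under 0.05 against 14.7%. DESeq2 called 4, Itga2b, Gp1bb, Vwf and Tmem40, against 8.21% of all genes. By edgeR Vwf (adjusted p = 0.0926) and Itga2b (adjusted p = 0.134) came next. Without A001 edgeR called all 3, and without any 1 of A021, A042, A150, A151, A015 or A053 none was. For the mean of the altered genotypes against wildtype, none was called by edgeR (0.0471% of all genes were), and DESeq2 called 2, Vwf and Tmem40, against 2.56% of all genes. By edgeR Vwf at -4.50 ± 0.92 (SE, edgeR adjusted p = 0.134) and Tmem40 at -2.93 ± 0.67 (adjusted p = 0.140) each had an unadjusted p under 0.05, as had 10.6% of all genes. The comparisons with wildtype share its 3 libraries. Without A031, the library with counts of Mir146, edgeR called Tmem40 over the 4 genotypes and in miR146aKO against wildtype, and no other of the 9 genes in any comparison.

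Ratios within a library do not depend on its depth. Those below were chosen after the values were seen and carry no test. Counts of Vwf per count of Itga2b were 0.231, 0.0745 and 0.301 in A001, A031 and A051 of miR146aKO_Runx1mut, 0.00635, 0.00781 and 0.00686 in A021, A042 and A058 of Runx1mut, 0.571, 0.667 and 0.163 in A047, A150 and A151 of miR146aKO, and 4.32, 2.63 and 0.379 in A015, A040 and A053 of wildtype. The 3 Runx1mut libraries lay below all others, although their Itga2b level differed 12.4-fold. Their ratios rest on 4, 61 and 14 counts of Vwf in A021, A042 and A058, so how close they are is not known. The ratio of A001 rests on 6 counts of Vwf and 26 of Itga2b, and that of A150 on 6 and 9. Itga2b per Itgb3 was 0.531, 1.37 and 0.394 in miR146aKO_Runx1mut, 1.47, 2.57 and 0.878 in Runx1mut, 0.207, 0.0592 and 0.282 in miR146aKO and 0.148, 0.249 and 0.563 in wildtype, so each Runx1mut library exceeded each wildtype one. Gp1bb per Gp9, subunits of 1 receptor, was 1.48 in A031 and 1.70 in A051 of miR146aKO_Runx1mut, 0.1, 0.0159 and 0.0244 in Runx1mut, 0.375 and 0 in A150 and A151 of miR146aKO and 0.148, 0.308 and 0 in wildtype. The A031 and A051 values each exceeded those of all other libraries, while A001 and A047 had too few counts of both genes for a ratio. The ratio of A021 rests on 1 count of Gp1bb and 10 of Gp9, and that of A150 on 3 and 8. Counts of Gp1bb carry the limit of the bases it shares with other genes.

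**Figure D4:**
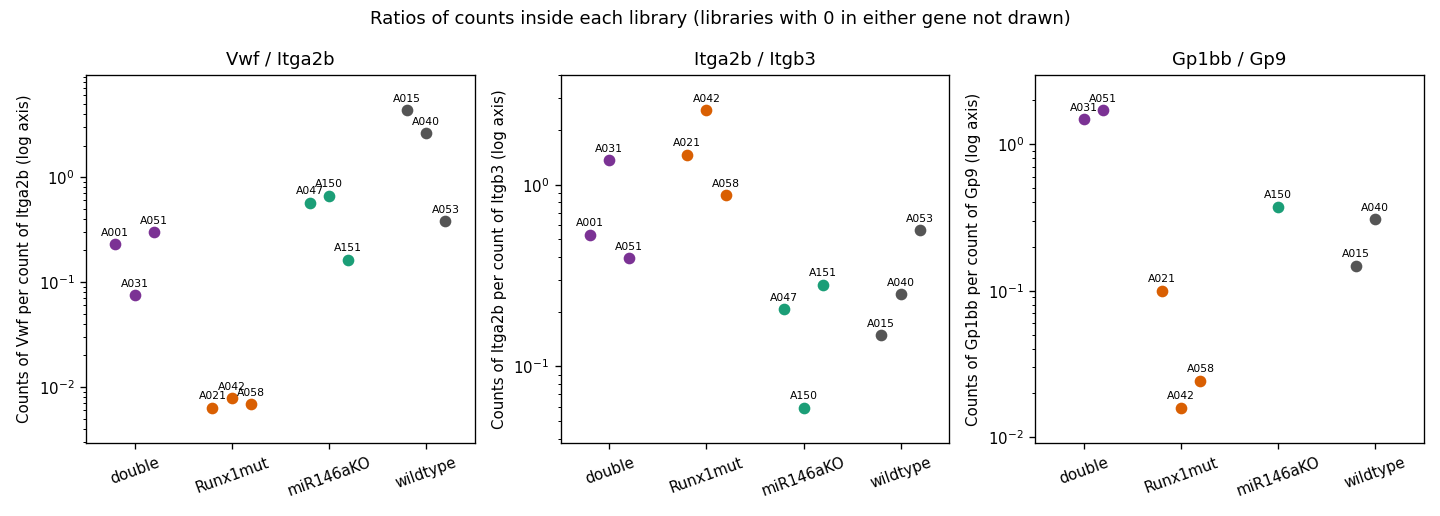
Ratios of counts between pairs of the genes within each library, by genotype ("double" for miR146aKO_Runx1mut), on log axes. Libraries with 0 counts of either gene are not drawn. The 3 Runx1mut libraries share a Vwf to Itga2b ratio below 0.01, and wildtype libraries lie at 0.379 or above.

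The genes varied together across libraries to different degrees. Over the 12 libraries, which share sorting gate, scaling and in groups of 3 their genotype, the 36 Pearson correlations of log2 CPM ran from 0.24 to 0.89 with a median of 0.68. The highest was that of Gp9 with Gp5, subunits of the same receptor (0.89), followed by Gp9 with Pf4 (0.88). The 8 pairs with Tmem40 had a median of 0.40, the 7 other pairs with Vwf 0.49 and the remaining 21 pairs 0.75. Ppbp and Tmem40 were the least alike (0.24).

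**Figure D5:**
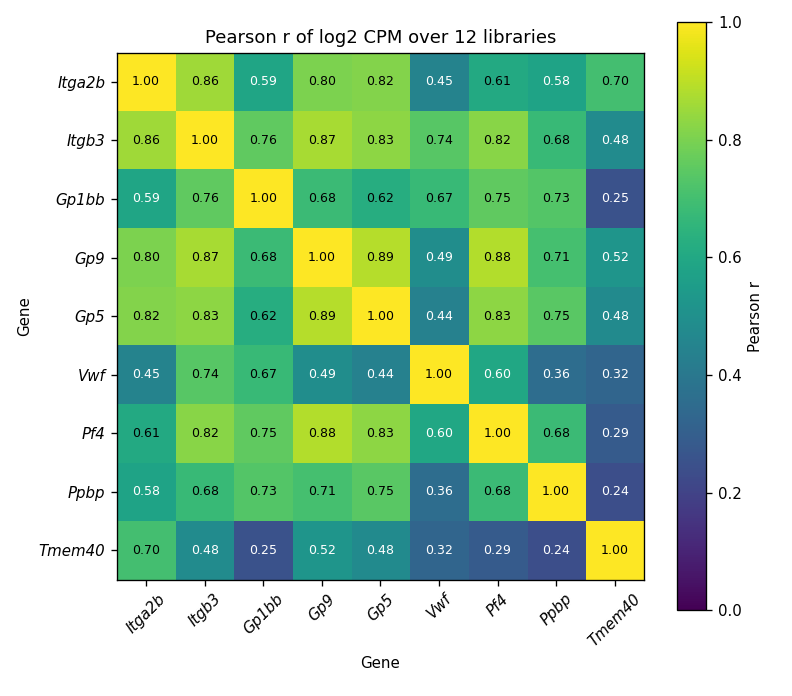
Pearson correlation of log2 CPM for each pair of the 9 genes over 12 libraries. Itgb3, Gp9, Gp5 and Pf4 form a block between 0.82 and 0.89, while the rows of Tmem40 and Vwf hold the lower values.

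The 6 genes outside the 9 whose log2 CPM was most like the mean log2 CPM of the 9, among 9628 considered, were Cttn (Pearson r = 0.92 over 12 libraries), an actin-binding protein, Rab27b (0.91), a small GTPase of granule release, Gp1ba (0.90), the chain of the platelet receptor that binds von Willebrand factor, Myef2 (0.90), F2rl2 (0.90), a thrombin receptor of mouse platelets, and Mrvi1 (0.88). Gp1ba stood at 3.10, 87.2 and 199 CPM in miR146aKO_Runx1mut, 2.55, 68.9 and 67.4 CPM in Runx1mut, 2.53, 0.968 and 3.65 CPM in miR146aKO and 26.3, 61.1 and 2.14 CPM in wildtype. Like Gp9 and Gp5, it was low in A001, in A021 and in all 3 miR146aKO libraries. Low values also occurred in wildtype: Gp1ba and Gp9 (0.854 CPM) were low in A053, and Gp5 (1.55 CPM) in A040.

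The wider set of platelet and megakaryocyte genes was read from 6 lists, whose members overlap each other. None of their genes outside the 9 was called in any comparison by edgeR. In miR146aKO against wildtype, the median log2 fold change was -2.99 for 13 tested genes of platelet-biased stem cells (0 higher and 13 lower, 5 of them among the 9 genes), -1.24 for 19 receptor and adhesion genes (7 higher, 12 lower), -1.21 for 18 megakaryocyte transcription factors (4 higher, 14 lower) and -1.23 for 15 genes known as RUNX1-regulated, mostly in human cells (6 higher, 9 lower). It was -0.43 for 18 granule genes (6 higher, 12 lower) and 0.14 for 22 cytoskeleton, signalling and enzyme genes (12 higher, 10 lower), against -0.0030 for all genes. In miR146aKO_Runx1mut against miR146aKO the medians were 2.77, 1.12, 0.54, 0.95, 0.73 and 0.32 in the same order, against -0.0093 for all genes. In Runx1mut against wildtype they were -1.58, 0.64, -0.46, 0.06, 0.01 and -0.19, and in miR146aKO_Runx1mut against wildtype -0.87, 0.09, -0.68, 0.57, 0.33 and 0.25, beside 0.0053 and 0.032 for all genes.

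Genes of each list with the lowest p for the altered genotypes against wildtype are given next. Nfe2, a transcription factor of platelet formation, had 62.0, 123 and 73.5 CPM in miR146aKO_Runx1mut, 96.8, 114 and 82.3 CPM in Runx1mut, 7.90, 28.8 and 24.3 CPM in miR146aKO and 212, 55.7 and 127 CPM in wildtype, and its miR146aKO libraries lay below all others (log2 fold change against wildtype -2.69 ± 0.58, edgeR adjusted p = 0.0685). Mmrn1, a carrier of factor V in granules, had 2.41, 28.1 and 67.7 CPM in miR146aKO_Runx1mut, 1.99, 13.1 and 54.4 CPM in Runx1mut, 4.74, 7.501 and 16.1 CPM in miR146aKO and 311, 124 and 116 CPM in wildtype. Like the share of Vwf, it was highest in the 3 wildtype libraries, and its log2 fold change for the altered genotypes was -3.25 ± 0.76 (adjusted p = 0.152).

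Cd36, a thrombospondin and fatty acid receptor that other blood cells also carry, ran against the other genes named by this rule, with 11.03, 20.1 and 30.1 CPM in miR146aKO_Runx1mut, 2.55, 0.569 and 2.57 CPM in Runx1mut, 17.4, 62.2 and 55.01 CPM in miR146aKO and 1.51, 0 and 0 CPM in wildtype. It was 1 of 7 receptor and adhesion genes, of 19 tested, with a higher estimate in miR146aKO than in wildtype. Its miR146aKO estimate against wildtype was 6.35 ± 1.39 log2 units (SE) on the higher side (edgeR adjusted p = 0.0685). The adhesion receptor Selp of platelet granules, the growth factor gene Angpt1, Sdpr, the channel gene Trpc6, the factors Lmo2 and Etv6, and the stem cell genes Procr and Fgd5 had lower estimates in miR146aKO than in wildtype, from -5.68 ± 1.48 for Sdpr to -1.42 ± 0.44 for Etv6 (adjusted p from 0.103 to 0.503). Each of these genes had lower estimates than wildtype in the other genotypes. This is partly built in, since they were chosen by the mean of the altered genotypes against wildtype. Estimates ran from -3.60 ± 1.72 for Procr to -0.56 ± 0.77 for Selp in Runx1mut. In miR146aKO_Runx1mut they ran from -6.57 ± 1.97 for Fgd5 to -0.87 ± 0.77 for Selp.

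Markers of the erythroid lineage, the nearest relative of megakaryocytes, were read beside these values. The summed level of 19 erythroid markers was 381 to 1359 CPM in miR146aKO_Runx1mut, 141 to 175 CPM in Runx1mut, 213 to 620 CPM in miR146aKO and 252 to 565 CPM in wildtype, with 8 to 15 of the 19 detected in a library. Of these, Hbb-bs, Hbb-bt, Hba-a1 and Hba-a2, the globin genes, were at 0 in all libraries, while Car1 reached 628 CPM in A051 and Alas2 32.0 CPM in A031. Whether reads of the globin genes could be counted here was not tested. In A001, at 381 CPM, Tfrc alone held 329 CPM of the sum. The part of erythroid cells in the levels of the 9 genes was not tested.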

How the data were processed

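The authors deposited raw read counts per gene symbol for 12 libraries, and no column was left unused. Per the labels' protocols, RNA was amplified with NuGEN Ovation v2 and libraries made with Nextera XT, which keep no strand. FastQC 0.11.2, HISAT2 2.0.4, featureCounts 1.5.2 and mm10 were used, per the submitters' processing notes. Not given in the sources used here: how strand was set in counting, and which annotation.

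Counts were tested with edgeR 4.0.16 (R 4.3.3; quasi-likelihood, TMM, filterByExpr) in 1 fit over 12 libraries, with Benjamini-Hochberg adjustment over 12744 genes and a threshold of 0.05. Variation between libraries was large (common biological coefficient of variation 0.809). A check on counts simulated from the fit's own model tested the code only. It does not show how many true changes the test would miss here. CPM are TMM-scaled, and log2 CPM have a prior count of 2. DESeq2 1.42.0, limma 3.58.1 (voom), other scalings, no filter, a Y-linked covariate, pairwise fits and leaving out each library were alternatives. Shares called by DESeq2 are of the genes to which it gave an adjusted p. Genes and lists were chosen with earlier results of these data known. All 9 genes were named, with up to 3 called genes of each list or else the 2 of lowest p, and the 6 most alike genes of mean log2 CPM of at least 2 (no predicted gene models). Of the genes this rule named, 1 is not reported here. Exon lengths are from GRCm38. P-values measure only the spread between libraries, since no label states separate animals.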

Additional observations from a re-analysis of the deposited data

How the results depend on the processing

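No paired analysis was possible because the columns carry no replicate number. The number of the 9 genes called depended mainly on the tool and the low-count filter. Without the filter it was 8 over the 4 genotypes, 7 in miR146aKO_Runx1mut against miR146aKO, 4 in miR146aKO against wildtype, 3 in the interaction, 2 in Runx1mut against wildtype, 2 for the altered genotypes, and 1 each in miR146aKO_Runx1mut against Runx1mut and against wildtype. With DESeq2 it was 4 over the 4 genotypes, 5 in miR146aKO_Runx1mut against miR146aKO, 2 in miR146aKO against wildtype, 2 in the interaction, 2 for the altered genotypes and 1 in Runx1mut against wildtype. With the Y-linked covariate and with limma-voom it was 0 over the 4 genotypes and 0 in miR146aKO against wildtype. Fitting miR146aKO and wildtype alone called 2, Tmem40 and Vwf, of 7 tested. Leaving out each library gave 0 to 3 over the 4 genotypes, 0 to 1 in miR146aKO against wildtype, and 0 to 0 in the other 6 comparisons. The causes were not tested. Tmem40 in miR146aKO against wildtype kept its side, at -7.73 with the covariate and -6.95 with limma-voom. Over all genes, miR146aKO against wildtype had 23 calls, against 980 with DESeq2, 796 without the filter, 158 for the 2 genotypes alone, 76 with limma-voom and 0 with the covariate. Over the 4 genotypes it was 52, against 1055 with DESeq2, 1359 without the filter, 26 with limma-voom and 1 with the covariate. For the other comparisons the calls over all genes without the filter, of 19210 tested, and with DESeq2 were 549 and 786 in miR146aKO_Runx1mut against miR146aKO, 268 and 234 in the interaction, 459 and 338 for the altered genotypes, 162 and 122 in Runx1mut against wildtype, 144 and 85 in miR146aKO_Runx1mut against Runx1mut and 256 and 248 in miR146aKO_Runx1mut against wildtype.

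Signs turned for small or uncertain estimates, none of which had passed the test. With the Y-linked covariate these were Ppbp in miR146aKO against wildtype (8.07) and in the interaction (-2.25), Itga2b (-0.43) and Itgb3 (-0.52) in miR146aKO_Runx1mut against wildtype, and Itga2b for the altered genotypes (-1.90). With limma-voom they were Itgb3 (-0.75), Gp5 (-0.45), Pf4 (-0.94) and Gp9 (-0.21) in miR146aKO_Runx1mut against wildtype, Itgb3 against Runx1mut (-0.52), and Itga2b (-0.19), Gp1bb (0.017) and Gp5 (-0.98) for the altered genotypes. Leaving out 1 library at a time, Ppbp ran from -6.39 to 3.56 in miR146aKO against wildtype, -3.50 to 9.64 in Runx1mut against wildtype, -1.25 to 7.56 in miR146aKO_Runx1mut against Runx1mut, -2.83 to 10.3 in the interaction and -0.73 to 7.86 for the altered genotypes. In the same way Itgb3 ran from -0.63 to 0.66 and Pf4 from -1.76 to 0.33 in Runx1mut against wildtype, Itgb3 from -0.033 to 1.36 and Gp9 from -0.45 to 2.24 in miR146aKO_Runx1mut against wildtype, and Itga2b from -1.72 to 0.87 and Gp5 from -1.01 to 0.23 against Runx1mut. For the altered genotypes Itgb3 ran from -1.30 to 0.015, Gp1bb from -1.58 to 0.79, Pf4 from -0.83 to 0.24 and Gp9 from -0.98 to 1.37. All other scalings kept each direction and call of the 9 genes. Without gene length, 1 of the 9 genes kept its rank of level in wildtype. Of the 6 most alike genes, 2 were also found with Spearman correlation and 4 with a floor of 3 on mean log2 CPM.

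Gp1bb, Ppbp and Tmem40 had 1 to 3 counts each over the miR146aKO libraries, which limits how well the size of their fold changes is known. Among genes with counts in all 3 libraries of a genotype, the spread between libraries reached 542-fold, for Pf4.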
